A study of Mus musculus with 14 samples.

Results

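The 34 genes described here mark the 4 main epithelial cell types of the mouse lung: 10 genes of alveolar type 2 (AT2) cells, 7 of alveolar type 1 (AT1) cells, 8 of club cells and 9 of ciliated cells. They were chosen by symbol from a fixed list and looked up among the 23284 gene rows of the deposited count tables, where 33 were found by symbol and Dnah5 under its older symbol Dnahc5. RNA sequencing had been done on 14 primary small cell lung cancers of genetically engineered mice, a neuroendocrine lung carcinoma. In the labels, 7 tumours had the genotype Rb1/Trp53 (called RP here) and 7 the genotype Rb1/Trp53/Crebbp (RPC), so that both groups carry the Rb1 and Trp53 alleles and differ in Crebbp, which encodes a histone acetyltransferase. Which Cre was used, which exons were deleted, how old the mice were and how the tumours were dissected is not given in the sources used. The labels do not say whether each tumour is from a separate mouse. The p-values therefore cover only the spread among these 14 samples.

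AT2 cells are the cuboidal cells of the alveolus that make surfactant, a film of lipid and proteins that keeps the air spaces open, and store it in lamellar bodies. AT1 cells are the thin cells through which gas is exchanged. Club cells are secretory cells of the airway that release secretoglobins and metabolise foreign compounds, and ciliated cells carry the motile cilia that clear mucus. The transcription factor NKX2-1 acts in the lung epithelium and is also expressed in many small cell lung cancers, forkhead factors act in alveolar and airway cells, and RFX factors act on cilia genes. In bulk RNA, fewer cells of a type and less RNA per cell cannot be told apart, and neither can RNA of lung tissue around a tumour and RNA of the tumour cells themselves.

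The RefSeq promoter table of the GRCm38.p6 assembly held 24 of the 34 genes, matched by symbol. In the 250 bases before the start site, 3 short motifs were searched on both strands: CTCAAG, a core of the NKX2-1 site, TGTTTNC, a forkhead core, and GTTGCC, a half-site bound by RFX factors. CTCAAG was found in 7 of the 24 (29.2%) and in 15.2% of all 27025 genes with a promoter, TGTTTNC in 8 of 24 (33.3%) against 19.9%, and GTTGCC in 5 of 24 (20.8%) against 11.8%. Of the 6 ciliated genes with a promoter, 3 held GTTGCC (Ccdc153, Dynlrb2 and Tekt1). A match describes the letters only and is not a bound site. The 4 promoters below belong to genes whose levels differ in kind further on: Sftpb and Sftpa1, which were close to 0 in some tumours, Abca3, which stayed at 42.0 CPM or more in all 14, and Dynlrb2, a ciliated gene of low level. Capitals mark the motifs on either strand, and no matches overlap in these 4. The regions are chr6:72304360-72304609 (Sftpb), chr14:41131538-41131787 (Sftpa1), chr17:24351773-24352022 (Abca3) and chr8:116504765-116505014 (Dynlrb2), all on the plus strand.
Sftpb: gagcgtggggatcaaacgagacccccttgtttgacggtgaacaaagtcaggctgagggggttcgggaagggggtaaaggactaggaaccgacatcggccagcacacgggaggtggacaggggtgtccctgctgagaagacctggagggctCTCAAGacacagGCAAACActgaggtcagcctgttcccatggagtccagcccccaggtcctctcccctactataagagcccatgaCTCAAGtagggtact
Sftpa1: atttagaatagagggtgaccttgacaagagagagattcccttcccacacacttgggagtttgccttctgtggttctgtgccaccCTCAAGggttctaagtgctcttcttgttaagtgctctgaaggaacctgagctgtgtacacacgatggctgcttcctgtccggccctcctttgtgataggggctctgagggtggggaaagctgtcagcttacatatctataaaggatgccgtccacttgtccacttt
Abca3: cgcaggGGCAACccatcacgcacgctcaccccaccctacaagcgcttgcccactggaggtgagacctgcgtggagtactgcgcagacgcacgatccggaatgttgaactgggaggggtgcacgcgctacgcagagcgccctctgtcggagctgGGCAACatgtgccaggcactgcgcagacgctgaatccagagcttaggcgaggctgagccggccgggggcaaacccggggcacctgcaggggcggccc
Dynlrb2: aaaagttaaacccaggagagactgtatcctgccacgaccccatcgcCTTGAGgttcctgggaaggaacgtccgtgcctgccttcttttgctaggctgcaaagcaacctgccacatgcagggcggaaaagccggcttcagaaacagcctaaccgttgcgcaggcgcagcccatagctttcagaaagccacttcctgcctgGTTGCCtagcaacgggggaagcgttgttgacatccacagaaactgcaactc
Sftpb held 2 copies of CTCAAG and 1 of TGTTTNC, and Sftpa1 held 1 of CTCAAG. Abca3 held 2 of GTTGCC, and Dynlrb2 held 1 of CTCAAG and 1 of GTTGCC.

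Libraries held 10060969 to 24052799 gene counts, so that 3 counts, taken here as the floor of detection, corresponded to 0.125 to 0.298 CPM (counts of a gene per 1000000 gene counts). Crebbp itself was not called between the groups: its log2 fold change in RPC against RP was -0.24 (SE 0.12; edgeR adjusted p = 0.264), and whole-gene counts also include reads from exons that were not deleted. All 13 neuroendocrine markers were detected in every tumour. RPC tumours 3, 5 and 6 stood apart from the other 11 along principal component 1 (45.0% of variance). Stromal markers were low in these 3: the 14 macrophage markers summed to 5.17 to 8.18 CPM against at least 516 CPM in the other 11, and 5 to 9 of them were at 0. The 13 fibroblast markers summed to 11.9 to 129 CPM against at least 428 CPM, and the 15 endothelial markers to 10.1 to 89.5 CPM against at least 96.7 CPM. Cdh5, the endothelial cadherin, was at 0 in all 3. Results that rest on these tumours are given with and without them.

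The summed level of the 34 genes varied from 244 to 5886 CPM between tumours, and each genotype held both high and low tumours. In RP tumours the sum had a low of 438 CPM, a median of 1813 CPM and a high of 5666 CPM. In RPC tumours the low was 244, the median 457 and the high 5886 CPM, the last being 0.589% of all gene counts of tumour 7. By this sum RPC 2 and RPC 7 were the highest of all 14 and RPC 3, 5 and 6 the lowest. Single genes and classes were not all ordered in this way. RPC 4 was the lowest of all 14 for the AT1 genes (64.1 CPM), RPC 1 ranked 12 for the club genes and RPC 5 ranked 9 for the ciliated genes. RPC 3, 5 and 6 had 20 to 23 of the 34 genes over 3 counts, against 29 to 34 in the other 11.

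**Figure D1:**
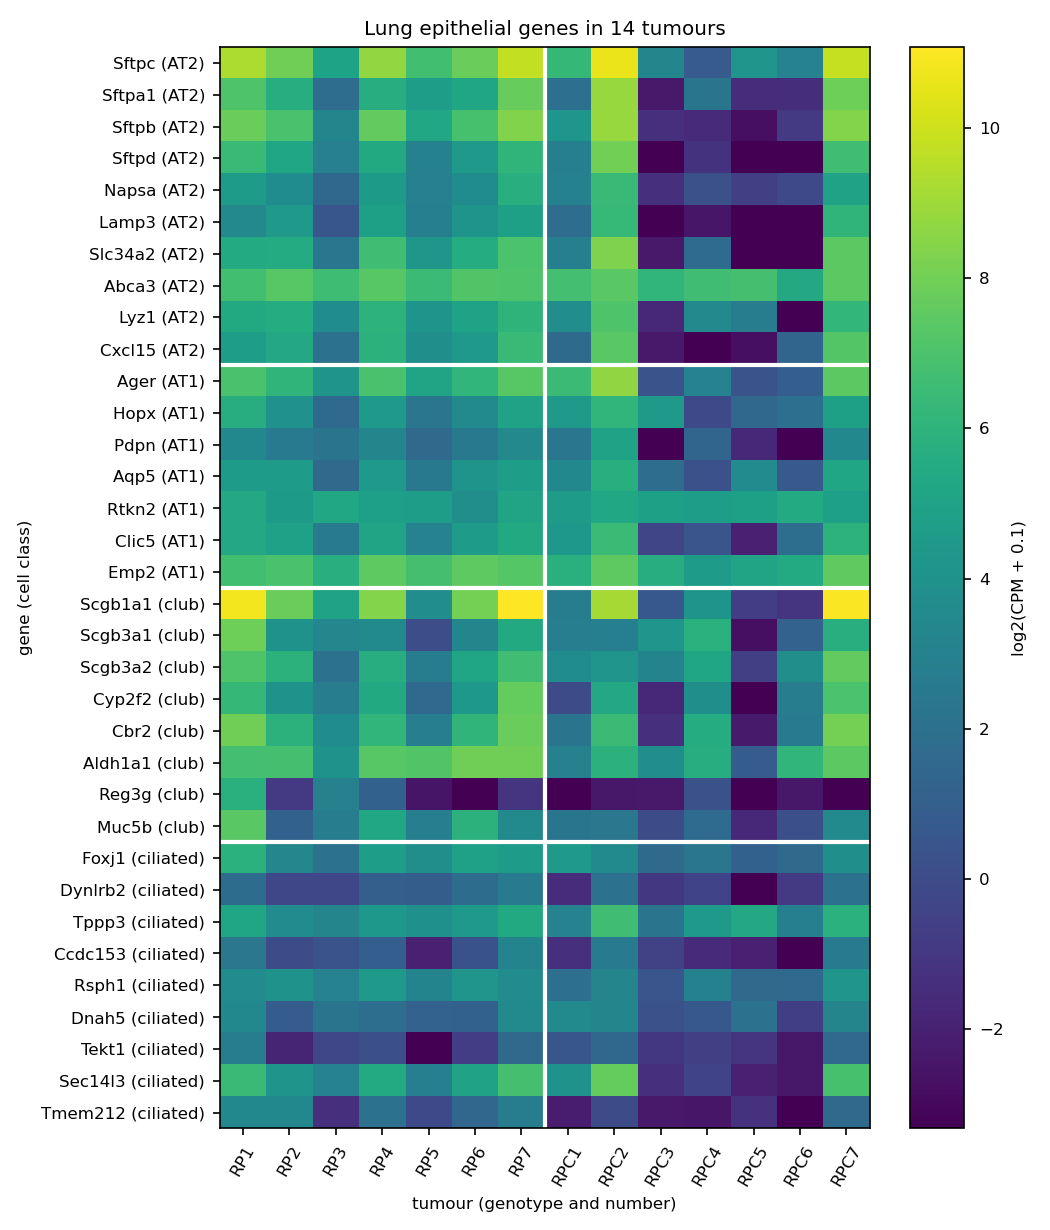
Level of each of the 34 genes (rows, grouped by cell class) in each of the 14 tumours (columns, 7 RP then 7 RPC), as log2 of CPM plus 0.1, with yellow high and dark blue low. RPC tumours 3, 5 and 6 are dark across most AT2 rows but not in the Abca3, Rtkn2 and Emp2 rows.

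None of the 33 genes that passed the filter on low counts was called between genotypes (edgeR quasi-likelihood test, adjusted p under 0.05), where 2.21% of the 14804 genes tested were called and 1.12% were called lower in RPC. At an unadjusted p under 0.05, 4 of the 33 had lower values in RPC (Muc5b, Foxj1, Rsph1 and Tmem212) and 0 had higher, against 11.1% of all genes tested in the lower and 10.3% in the higher direction. Reg3g did not pass the filter. None of the 34 had genotype ranges that did not overlap, against 1.03% of the genes tested. By class the median log2 fold change was 0.19 for AT2, -0.03 for AT1, -1.02 for club and -0.59 for ciliated genes, beside 0.002 for all genes. All 7 club genes tested had a negative value, as did 4 of 10 AT2, 4 of 7 AT1 and 6 of 9 ciliated genes. Without RPC tumours 3, 5 and 6 the medians were 0.98, 0.64, -0.43 and 0.13, with 0 of 10 AT2 genes and 6 of 8 club genes negative, and 0 of the 34 genes then tested were called (0.0716% of all genes), with 3 lower at an unadjusted p under 0.05 (7.05% of all genes). With the mean log2 level of the stromal markers as a term in the model, 8 of the 33 were negative and 0 were called (0.0405% of all genes), with 1 lower at an unadjusted p under 0.05 (5.84% of all genes). DESeq2 called 2 of the 33, Muc5b and Tmem212 (9.62% of all genes), and limma-voom called 0 (3.4% of all genes), with 18 lower at an unadjusted p under 0.05 (16.5% of all genes). The signs in edgeR depended on single tumours. Without RPC 2, 31 of the 33 were negative (median -1.01) and 0 were called (1.46% of all genes). Without RP 1 or RP 7, 16 of the 33 were negative (medians 0.04 and 0.07).

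**Figure D2:**
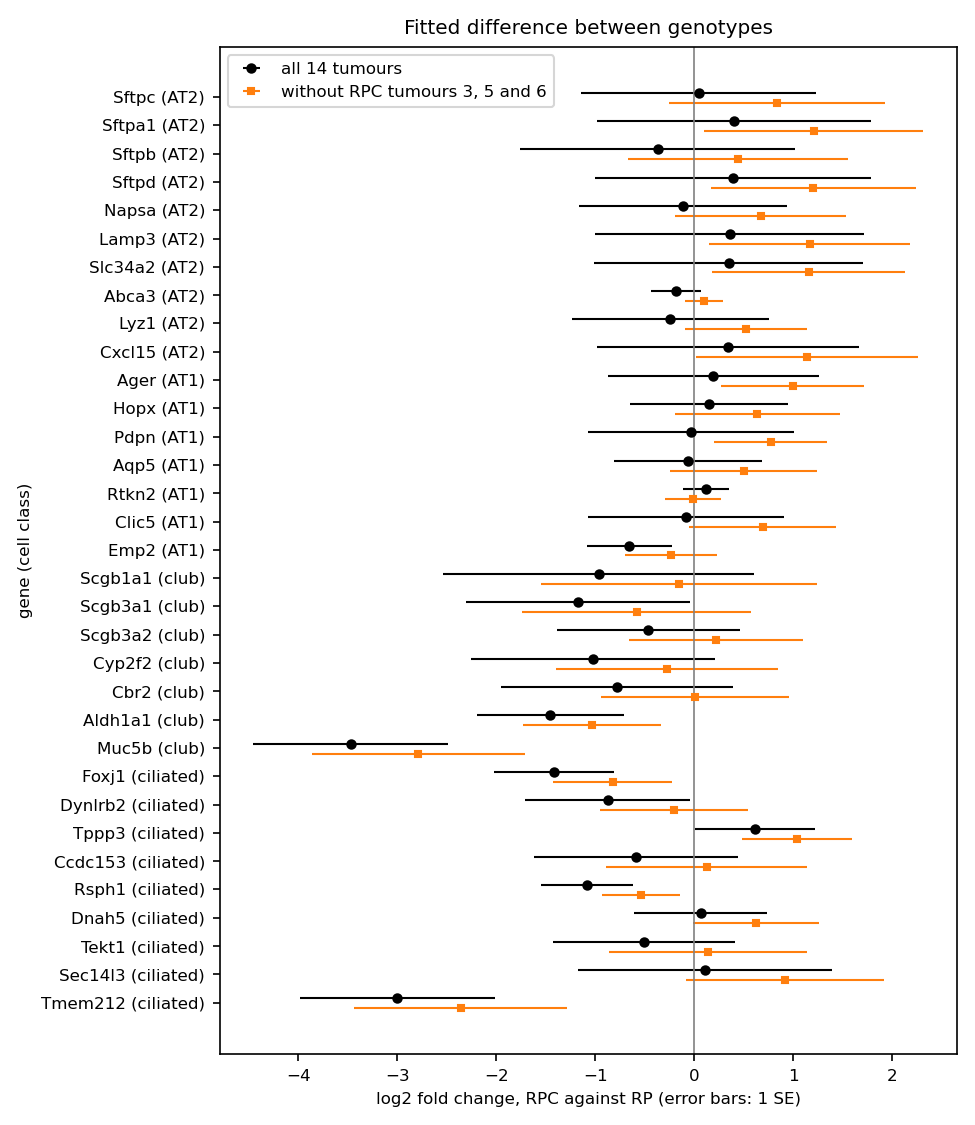
Fitted log2 fold change of RPC against RP for each of the 33 genes tested (rows), with all 14 tumours (black circles) and without RPC tumours 3, 5 and 6 (orange squares), bars showing 1 SE. Most orange squares lie to the right of the black circles, and the lowest values are those of Muc5b (-3.47) and Tmem212 (-3.0).

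The 10 AT2 genes summed to 178 to 1981 CPM in RP tumours and 54.2 to 3761 CPM in RPC tumours. By this sum RPC 2 and 7 lay above every RP tumour, RPC 3, 4, 5 and 6 below every RP tumour, and RPC 1 between. In RPC 3, 4, 5 and 6 most of the sum was Abca3 alone. It held 72.0, 101, 116 and 42.0 CPM of the 82.9, 123, 142 and 54.2 CPM there. Sftpc encodes surfactant protein C, the defining product of AT2 cells. In RP tumours 1 to 7 it was at 632, 248, 32.5, 436, 105, 219 and 873 CPM, a mean of 364 ± 302 (SD, n = 7). In RPC tumours 1 to 7 it was at 77.7, 1634, 9.84, 1.64, 18.3, 8.27 and 917 CPM, a mean of 381 ± 646 (SD, n = 7). RPC 2 and 7 therefore lay above every RP tumour and RPC 3, 4, 5 and 6 below every RP tumour, and the groups overlapped. The fitted log2 fold change was 0.04 (SE 1.19; edgeR adjusted p = 0.988), and 0.83 without RPC 3, 5 and 6. Sftpb, which encodes the surfactant protein that spreads the lipid film, had a low of 9.83, a median of 124 and a high of 324 CPM in RP and 0.05, 0.44 and 459 CPM in RPC. Its values were at or under 0.44 CPM in RPC 3, 4, 5 and 6, and its log2 fold change was -0.37 (SE 1.39; edgeR adjusted p = 0.897) and 0.44 without the 3 tumours.

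The other AT2 genes apart from Abca3 were also high in RPC 2 and 7 and low in RPC 3, 5 and 6. Sftpa1 and Sftpd, the surfactant collectins, Napsa, a protease that processes surfactant proteins, Lamp3, a lamellar body protein, and Slc34a2, the phosphate transporter of AT2 cells, were at or under 0.79 CPM in RPC 3, 5 and 6. RPC 4 held 4.77 CPM of Sftpa1, 0.33 of Sftpd, 1.07 of Napsa, 0.08 of Lamp3 and 3.13 of Slc34a2. In RPC 2 these genes ranged from 80.3 CPM for Lamp3 to 455 CPM for Sftpa1. RPC tumours 2 and 7 were both above every RP tumour for 9 of the 10 AT2 genes, the exception being Napsa, which was at 31.1 CPM in RPC 7 and 51.9 CPM in RP 7. The same count was not made over all genes tested, so this describes the levels only. Lyz1, an AT2 lysozyme, was at 0 to 6.81 CPM in RPC 3, 5 and 6 and at 137 CPM in RPC 2, but its reads can be confused with those of its close copy Lyz2, so its level is uncertain. Cxcl15, the lung chemokine lungkine, was at 2.99 CPM or less in 5 RPC tumours and at 171 CPM in RPC 2.

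Abca3, the transporter that loads lipid into lamellar bodies, had a narrower spread, from 42.0 to 174 CPM over the 14 tumours. It had a low of 91.7, a median of 140 and a high of 163 CPM in RP (mean 129 ± 30.0, SD, n = 7) and 42.0, 109 and 174 CPM in RPC (mean 112 ± 47.6, SD, n = 7). RPC 3, 5 and 6, in which Sftpd and Lamp3 were at 0, held 72.0, 116 and 42.0 CPM of it. Its log2 fold change was -0.18 (SE 0.25; edgeR adjusted p = 0.691) and 0.10 without those tumours.

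The 7 AT1 genes summed to 127 to 464 CPM in RP and 64.1 to 874 CPM in RPC. Ager encodes the receptor RAGE, which AT1 cells carry at a high level. In RP tumours 1 to 7 it was at 125, 68.4, 17.2, 122, 34.2, 71.8 and 164 CPM, a mean of 86.1 ± 53.0 (SD, n = 7). In RPC tumours 1 to 7 it was at 91.0, 411, 1.19, 8.39, 1.19, 1.85 and 178 CPM, a mean of 98.9 ± 153 (SD, n = 7). As for Sftpc, RPC 2 and 7 were above and RPC 3 to 6 below every RP tumour. Its log2 fold change was 0.19 (SE 1.06; edgeR adjusted p = 0.934), and 0.99 without RPC 3, 5 and 6. Pdpn, the AT1 surface glycoprotein podoplanin, was at or under 0.21 CPM in RPC 3, 5 and 6, and Clic5, a chloride channel protein tied to the cell cortex, was at 0.70, 0.15 and 3.52 CPM there.

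Emp2, a membrane protein of AT1 cells, and Rtkn2 were present in all 14 tumours. Emp2 had a low of 53.7, a median of 123 and a high of 183 CPM in RP and 23.8, 50.3 and 189 CPM in RPC. It was at 55.5 CPM or less in RPC 1, 3, 4, 5 and 6 and at 181 and 189 CPM in RPC 2 and 7, so the groups overlapped. Its log2 fold change was -0.66 (SE 0.43; edgeR adjusted p = 0.392), and -0.24 without RPC 3, 5 and 6. Rtkn2 had a low of 13.9, a median of 28.4 and a high of 40.9 CPM in RP and 24.8, 28.7 and 44.4 CPM in RPC, with the highest value in RPC 6. Hopx, a homeodomain cofactor, was at 21.97 CPM in RPC 3, above the RP median of 15.2 CPM, although Ager was at 1.19 CPM in that tumour. Aqp5, a water channel, was at 12.1 CPM in RPC 5 and at 3.38 and 1.5 CPM in RPC 3 and 6.

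**Figure D3:**
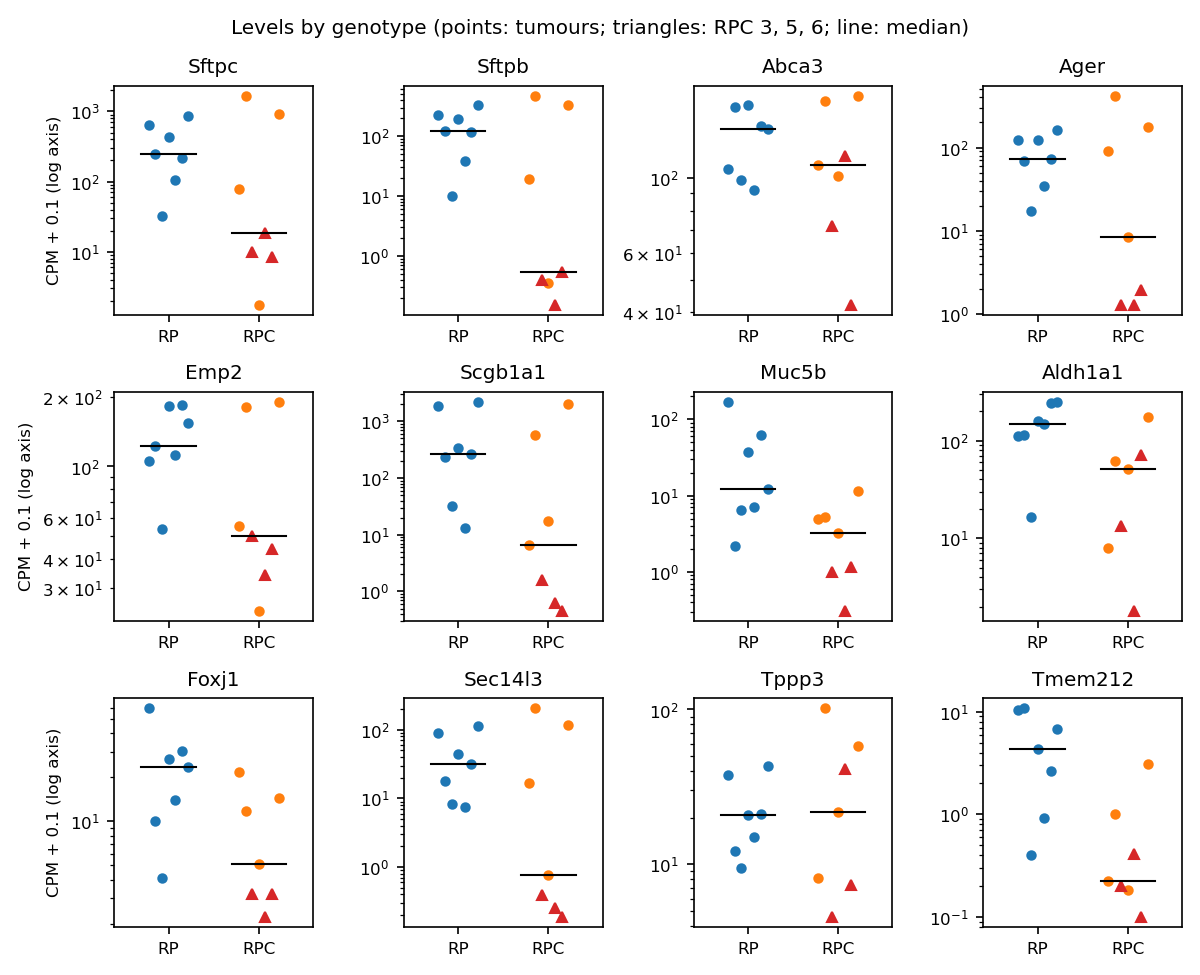
CPM plus 0.1 on a log axis for 12 genes (panels) in 7 RP tumours (blue circles) and 7 RPC tumours (orange circles, with RPC 3, 5 and 6 as red triangles), black lines marking medians. The red triangles lie below every RP point for Sftpc, Sftpb, Ager and Scgb1a1, but not for Abca3 and Tppp3, and the genotypes overlap in all 12 panels.

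The 8 club genes summed to 96.2 to 2993 CPM in RP and 3.15 to 2848 CPM in RPC. The RP tumours themselves thus spanned a wide range, and no club gene but Scgb3a2 and Cbr2 had an RPC tumour above every RP tumour. Scgb1a1, the club cell secretoglobin and the main secreted product of these cells, was at 1841, 232, 31.6, 344, 13.3, 264 and 2165 CPM in RP tumours 1 to 7, a mean of 699 ± 904 (SD, n = 7). In RPC tumours 1 to 7 it was at 6.44, 566, 1.49, 17.3, 0.52, 0.35 and 2019 CPM, a mean of 373 ± 755 (SD, n = 7). RPC 1, 3, 5 and 6 lay below every RP tumour and RPC 7 close to the highest, so the groups overlapped. Its log2 fold change was -0.97 (SE 1.57; edgeR adjusted p = 0.747), and -0.16 without RPC 3, 5 and 6. Cyp2f2, a club cell cytochrome P450, and Cbr2, a carbonyl reductase, were highest in RP 7 (206 CPM) and RPC 7 (265 CPM). RPC 3 and 5 held 0.30 CPM or less of both, while RPC 6 held 6.86 and 5.72 CPM.

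Muc5b, the gel-forming mucin of airway secretory cells, had the smallest p of the 34 genes. It had a low of 2.10, a median of 11.95 and a high of 167 CPM in RP and 0.21, 3.13 and 11.4 CPM in RPC. All 7 RPC values were under the RP median, but RPC 1, 2, 4 and 7 exceeded the 2.10 CPM of RP 2, so the groups overlapped. The log2 fold change was -3.47 (SE 0.99; edgeR adjusted p = 0.0724), and -2.79 without RPC 3, 5 and 6 (edgeR adjusted p = 0.325). With 1 tumour left out, the adjusted p was 0.0471 without RP tumour 3, 0.0450 without RPC tumour 7 and between 0.0709 and 0.139 for the other 12 (edgeR). Without RP tumour 1, the highest, the log2 fold change was -2.48 (edgeR adjusted p = 0.139). Aldh1a1, a retinaldehyde dehydrogenase, had a low of 16.5, a median of 146 and a high of 245 CPM in RP and 1.70, 51.0 and 174 CPM in RPC, where 6 of 7 were under the RP median. Its log2 fold change was -1.46 (SE 0.74; edgeR adjusted p = 0.272), and -1.04 without the 3 tumours. Reg3g, an antimicrobial lectin, was at 55.8 CPM in RP 1 and at 7.73 CPM or less in the other 13 tumours, 4 of which had 0 counts.

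The secretoglobins Scgb3a1 and Scgb3a2 were ordered differently from Scgb1a1. Scgb3a1 was highest in RP 1 (242 CPM), followed by RPC 4 (59.1 CPM), and was at 17.9 CPM in RPC 3, above the RP median of 11.2 CPM. Scgb3a2 was highest in RPC 7 (200 CPM), was at 37.3 CPM in RPC 4, and was at 8.95 and 13.6 CPM in RPC 3 and 6. Bpifa1 and Krt5, airway genes outside the 34, were highest in RPC 4. Bpifa1, a secreted protein of the upper airway, was at 186 CPM there and at 23.4 CPM or less in the other 13. Krt5, the basal cell keratin, was at 10.7 CPM there and at 0.75 CPM or less elsewhere. The 7 basal genes listed did not together single out RPC 4. They summed to 22.2 CPM there, and to 84.1 CPM in RP 4, 29.6 CPM in RPC 5 and 23.5 CPM in RPC 3. In RPC 4 Sftpc was at 1.64 CPM, its lowest value of all 14.

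The 9 ciliated genes summed to 37.2 to 233 CPM in RP and 11.7 to 350 CPM in RPC. Foxj1, the transcription factor that drives motile cilia formation, was at 59.1, 10.03, 3.98, 26.4, 13.9, 30.3 and 23.5 CPM in RP tumours 1 to 7, a mean of 23.9 ± 18.1 (SD, n = 7). In RPC tumours 1 to 7 it was at 21.6, 11.7, 3.08, 5.02, 2.12, 3.08 and 14.3 CPM, a mean of 8.69 ± 7.37 (SD, n = 7). All 7 RPC values were under the RP median, and only RPC 3, 5 and 6 were under the lowest RP value. Its log2 fold change was -1.42 (SE 0.60; edgeR adjusted p = 0.194), and -0.82 without those 3 tumours. Rsph1, a radial spoke protein, had a low of 8.11, a median of 12.4 and a high of 22.4 CPM in RP and 1.29, 3.78 and 18.3 CPM in RPC, and a fitted log2 difference of -1.08 (SE 0.47; edgeR adjusted p = 0.201), and -0.54 without the 3 tumours.

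Tmem212, a ciliated cell membrane protein, had a low of 0.30, a median of 4.27 and a high of 10.7 CPM in RP and 0, 0.12 and 3.01 CPM in RPC. All 7 RPC values were under the RP median and 4 (RPC 1, 3, 4 and 6) were under every RP value. Those 4 rested on 0 to 3 counts and the lowest RP value on 4 counts (RP 3), so their order is uncertain. The log2 fold change was -3.0 (SE 0.98; edgeR adjusted p = 0.107), and -2.36 without the 3 tumours, and the adjusted p was 0.0270 without RPC tumour 7 and between 0.0603 and 0.178 with any other tumour left out. Tppp3, a tubulin-binding protein, and Sec14l3, a lipid-binding protein of airway cells, had positive log2 fold changes of 0.61 (SE 0.61; edgeR adjusted p = 0.582) and 0.11 (SE 1.28; adjusted p = 0.971), and 1.04 and 0.91 without the 3 tumours. Tppp3 had a low of 9.38, a median of 20.7 and a high of 43.3 CPM in RP and 4.47, 21.6 and 101 CPM in RPC, with 41.2 CPM in RPC 5. Sec14l3 had a low of 7.38, a median of 31.2 and a high of 112 CPM in RP and 0.09, 0.66 and 204 CPM in RPC, where tumours 3 to 6 held 0.66 CPM or less. The remaining ciliated genes, the dynein genes Dnah5 and Dynlrb2, the tektin gene Tekt1 and Ccdc153, did not exceed 11.4 CPM in any tumour.

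A difference of mean log2 levels, which gives each tumour equal weight, was more negative than the fit for 4 defining genes. With 0.1 CPM added, the difference of RPC from RP was -2.45 for Sftpc, -2.18 for Ager, -4.17 for Scgb1a1 and -1.51 for Foxj1. The exact two-sided permutation p over 3432 splits was 0.133, 0.149, 0.0693 and 0.0484, and the Benjamini-Hochberg adjusted values over the 4 were 0.149, 0.149, 0.139 and 0.139. None passed 0.05. Without RPC 3, 5 and 6 the differences were -1.0, 0.33, -1.12 and -0.63 (exact permutation over 330 splits, adjusted p = 0.758 for each). Without RPC tumour 2 they were -3.32, -2.98, -5.08 and -1.66, and each then had an adjusted exact permutation p of 0.0472. Leaving out any of the other 13 tumours gave adjusted exact permutation p between 0.0676 and 0.280 for the 4 genes.

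RPC 3, 5 and 6 together held less of most of these genes, but not of all. The mean level in the 3, as a percent of the mean in the other 11, had a median of 94.5% over all genes tested and of 4.55% over the 34. By class it was 0.918% for AT2, 28.1% for AT1, 3.58% for club and 13.8% for ciliated genes. A level under 5% of that in the other 11 was found for 9 of 10 AT2, 3 of 7 AT1, 5 of 8 club and 2 of 9 ciliated genes, and for 4.88% of all genes tested. The genes with a mean of 25% or more were Rtkn2 (117%), Abca3 (57.8%), Tppp3 (55.7%), Hopx (40.1%), Emp2 (34.5%), Dnah5 (30.8%) and Aqp5 (28.1%). For some of them a single tumour held most of the reads. In RPC 3, 5 and 6 there were 221, 53 and 43 reads of Hopx and 45, 798 and 82 of Tppp3. Aqp5 had 34, 235 and 17 reads and Dnah5 11, 79 and 6. For Abca3, Tppp3 and Dnah5, 2 of the 3 tumours lay below every RP tumour. Sftpc kept 2.58%. For 13 of the 34 all 3 tumours lay below the other 11, against 9.40% of genes tested, and for 7 (Sftpc, Cxcl15, Hopx, Aqp5, Emp2, Reg3g and Tekt1) all 3 lay within the range of the other 11, against 39.9%. Being within that range does not mean that a gene was kept. For Cxcl15, Reg3g and Tekt1 the range reached 0 counts, so no value could lie below it. For Sftpc, Emp2, Hopx and Aqp5 its low end was RPC 4. All 3 tumours lay below every RP tumour for Sftpc, Cxcl15 and Emp2, and 1 of the 3 did for Hopx and for Aqp5. Per kilobase of the longest transcript, the highest medians in the 3 tumours were those of Sftpc (12.4 CPM per kb), Abca3 (11.1), Scgb3a2 (10.6) and Emp2 (8.32). In RP tumours the order of medians per kilobase was Scgb1a1 (554), Sftpc (313) and Sftpb (79.8).

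Ratios of read counts within a library lay outside the range of the other 11 for some gene pairs in RPC 3, 5 and 6 and inside it for others. There were 1.88 to 6.67 reads of Sftpc for each read of Sftpb in the other 11 tumours, with a median of 2.77. RPC 3 had 33 (99 against 3 reads; exact 95% interval 10.97 to 163), RPC 5 had 355 (355 against 1; 63.3 to 14061) and RPC 6 had 18.8 (94 against 5; 7.78 to 59.2). Each of these 3 intervals lay above the highest ratio of the other 11, which itself rested on 20 against 3 reads in RPC 4. Hopx reads were 0.098 to 0.397 for each Ager read in the other 11, against 18.4 in RPC 3 (10.3 to 36.2), 2.30 in RPC 5 (1.39 to 3.94) and 2.05 in RPC 6 (1.19 to 3.63). Scgb3a2 to Scgb1a1 was 0.033 to 2.15 in the other 11, 6 in RPC 3 (3.45 to 11.2) and 38.5 in RPC 6 (14.7 to 143), but 1.10 in RPC 5 (0.424 to 2.89), inside that range. Scgb3a1 to Scgb1a1 was 0.0128 to 3.403 in the other 11 and 12 in RPC 3 (7.08 to 21.9), above that range. In RPC 6 it was 6.25 (25 against 4 reads), but the interval of 2.16 to 24.7 reached into the range. In RPC 5 it was 0.1 (1 against 10 reads), inside the range. Foxj1 to Tekt1 was 7.75, 5.86 and 35 in RPC 3, 5 and 6, all inside the 4.13 to 60.1 of the other tumours in which Tekt1 was counted. The value in RPC 6 rested on 35 against 1 reads, with an interval of 5.88 to 1421. In RPC 4 Sftpa1 had 58 reads against 3 of Sftpb, a ratio of 19.3 (6.30 to 96.5), where the median of the 11 was 0.629. These intervals cover counting error only, and no ratio was tested between genotypes.

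**Figure D4:**
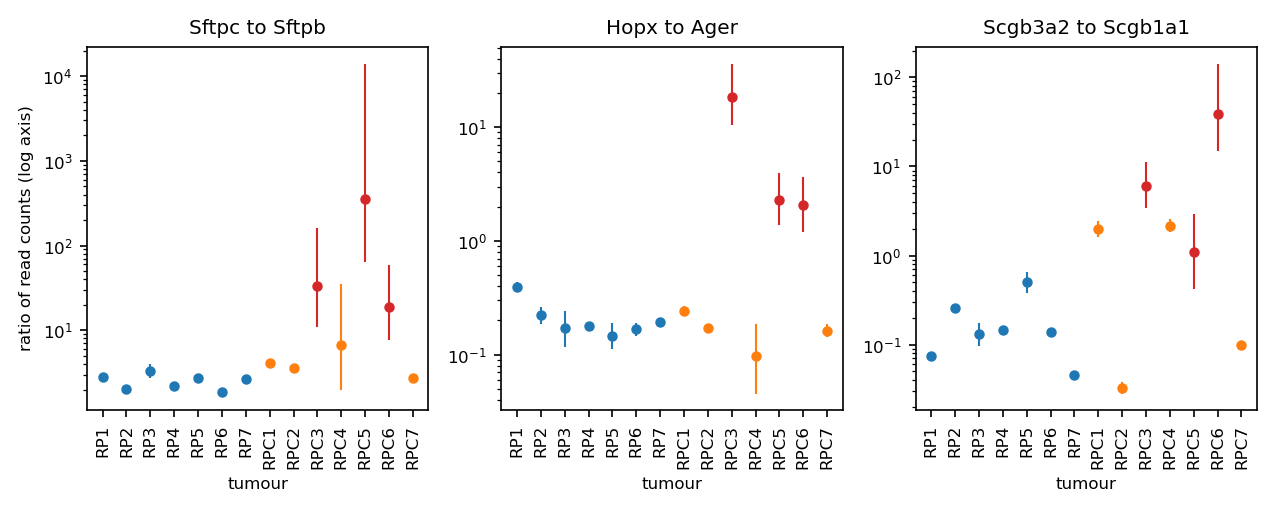
Ratio of read counts of gene pairs in each of the 14 tumours on a log axis, with exact 95% intervals of counting error as bars (blue RP, orange RPC 1, 2, 4 and 7, red RPC 3, 5 and 6). Sftpc to Sftpb lies between 1.88 and 6.67 in 11 tumours and between 18.8 and 355 in the 3 red ones.

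Among the other 11 tumours most alveolar genes varied with the defining gene of their class, in that the log2 ratio of the pair had a smaller SD than either gene alone. This held for 7 of 9 AT2 genes against Sftpc and 4 of 6 AT1 genes against Ager, for 2 of 7 club genes against Scgb1a1 and for 0 of 8 ciliated genes against Foxj1. Genes outside each class were not compared in this way, so the counts do not show that the relation is particular to the class. The ratio of Sftpb to Sftpc had an SD of 0.43, where Sftpc itself had 2.81, and that of Clic5 to Ager 0.41, where Ager had 1.6. Abca3 and Rtkn2 varied little, with SDs of 0.35 and 0.44, and were among the exceptions. Foxj1 had an SD of only 1.13, and for 5 of 8 ciliated genes the ratio varied less than the gene itself, though not less than Foxj1. Sftpc and Ager correlated across the 11 tumours (r = 0.940, permutation p adjusted over 22 pairs 0.00022; rho = 0.936, adjusted 0.0022), and without the 2 tumours farthest from the median of Sftpc r was 0.860. Sftpc also correlated with Scgb1a1 (r = 0.770, adjusted permutation p = 0.0113; rho = 0.855, adjusted 0.0163), with r = 0.886 without 2 tumours. Ager and Scgb1a1 were less close (r = 0.695, adjusted permutation p = 0.0488; rho = 0.773, adjusted 0.0398), with r = 0.618 without 2.

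Stromal genes also moved with the alveolar ones in these 11. Ager correlated with Cdh5 (r = 0.873, adjusted permutation p = 0.00583; rho = 0.836, adjusted 0.0165) and with r = 0.731 without 2 tumours. Sftpc correlated with Ctss, a macrophage protease (r = 0.794, adjusted permutation p = 0.0113; rho = 0.745, adjusted 0.0488), with r = 0.668 without 2. Sftpc with Cdh5 (r = 0.756, adjusted permutation p = 0.0216) and Ager with Ctss (r = 0.786, adjusted 0.0174) passed on r, but not on rho (adjusted 0.107 for both, rho = 0.664 and 0.655), and r was 0.421 and 0.584 without 2. The fibroblast collagen Col3a1 did not pass with Sftpc (r = 0.208, adjusted permutation p = 0.603; rho = 0.155, adjusted 0.844). No pair with Foxj1 passed. In all, 7 of 22 pairs passed on r and 5 on both measures, and the part of stromal RNA in these relations was not tested.

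**Figure D5:**
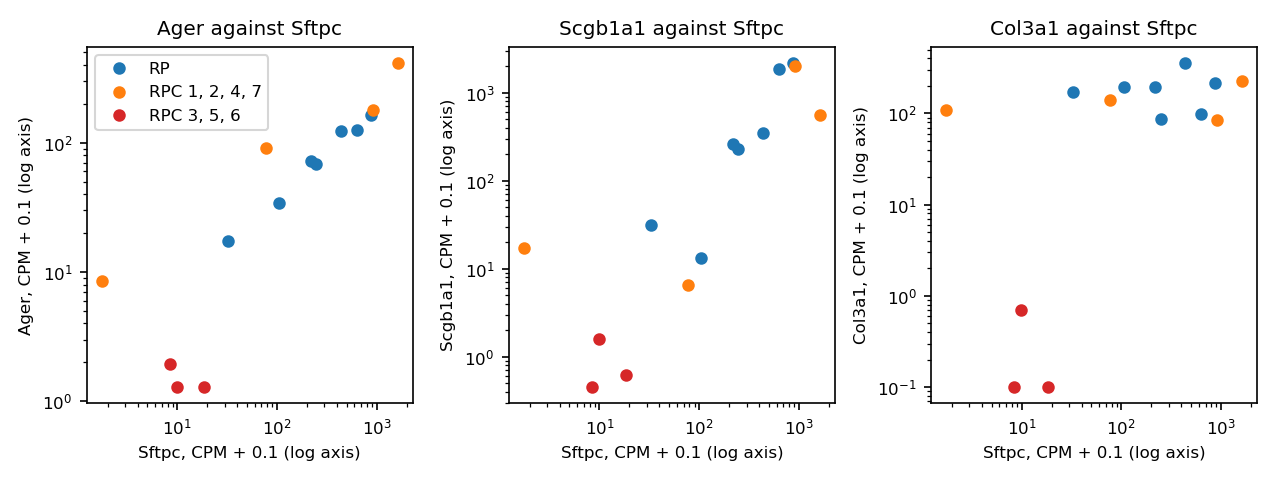
Ager, Scgb1a1 and Col3a1 (y axes) against Sftpc (x axis), in CPM plus 0.1 on log axes, 1 point per tumour (blue RP, orange RPC 1, 2, 4 and 7, red RPC 3, 5 and 6, which were left out of the correlations). Ager rises with Sftpc over the 11 tumours (r = 0.940), while Col3a1 shows no such order (r = 0.208).

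Of 146 further genes of the same cell types, their regulators and basal cells that were matched in the tables, 123 were tested and 3 called in edgeR, a share near the 2.21% called among all genes. Por, the reductase that supplies electrons to cytochromes P450, was lower in RPC, at -1.37 on the log2 scale (SE 0.30; edgeR adjusted p = 0.0331). RP tumours held 77.7 to 338 CPM of it and RPC tumours 68.9 to 166 CPM. Rfx3, a regulator of cilia genes, was higher, at 25.6 to 40.6 CPM in RP and 33.2 to 95.6 CPM in RPC, a log2 difference of 0.97 (SE 0.20; edgeR adjusted p = 0.0262). Sox9, a factor of the distal lung bud, was higher by 4.60 (SE 0.93; edgeR adjusted p = 0.0255), with 0.19 to 1.35 CPM among RP tumours, 0.83 CPM in RPC 1 and 68.5 CPM in RPC 5. The ranges overlapped for all 3 genes, and without RPC 3, 5 and 6 none was called (Por -1.29, adjusted p = 0.206; Rfx3 0.94, adjusted p = 0.172; Sox9 2.27, adjusted p = 0.161). With 1 tumour left out, 0 of these genes were called without RP 5, RP 6 or RPC 3, 1 without RP 4 or RP 7, 6 without RP 3 and 8 without RPC 7 (edgeR). Over all genes the share called was 6% without RP 3 and 5.12% without RPC 7.

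At an unadjusted p under 0.05, 15 of the 123 had lower and 7 had higher values in RPC, against 11.1% and 10.3% of all genes, and 79 of 123 were negative, against 49.8% of all genes. After Por, the smallest p among the lower ones belonged to the axonemal dynein gene Dnaic1 (-2.78, edgeR adjusted p = 0.0514), Nupr1, a stress-response gene (-2.01, adjusted 0.0575), Riiad1 (-1.55, adjusted 0.0593) and Foxa2, a forkhead factor of lung epithelium (-0.69, adjusted 0.0827). Without RPC 3, 5 and 6 these were -2.30 (edgeR adjusted p = 0.284), -1.88 (0.264), -1.31 (0.332) and -0.93 (0.172). Dnaic1 had a median of 10.1 CPM in RP and 1.34 CPM in RPC, Nupr1 of 181 and 48.3 CPM, and Riiad1 of 8.30 and 2.46 CPM. Nkx2-1 differed little in the fit, at -0.01 on the log2 scale (SE 0.24; edgeR adjusted p = 0.979), and was at 319 to 775 CPM in all 14 tumours, RPC 3, 5 and 6 included.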

How the data were processed

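RNA of 14 tumours was measured by polyadenylated RNA sequencing. The deposited files pair each gene symbol with a whole-number read count that was not normalized, as the values show. The submitters' processing notes name the build mm9 and the tools HTSeq 0.6.1, TopHat2 2.0.12 and bcl2fastq 1.8.2. For settings, annotation and strand, the sources used here give nothing. HTSeq counts may miss reads shared between near-identical genes such as Lyz1 and Lyz2. The 5 rows that name no gene (reads outside genes 15.1% to 20.5%, not unique 8.44% to 11.2%, ambiguous 0.883% to 1.09% of a file) were left out, and CPM uses the sum of gene counts. No pair of libraries of the same genotype was a repeat of 1 library, and pairs of different genotype were not compared.

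Counts were fitted with edgeR 4.0.16 in R 4.3.3 (filterByExpr, TMM, quasi-likelihood F test between genotypes, Benjamini-Hochberg adjustment over 14804 genes, calls at 0.05). An SE is the log2 fold change divided by the root of F. The fit was tested on simulated data. Permutation tests and exact Clopper-Pearson intervals used scipy 1.17.1, with 100000 resamples for correlations. Alternatives were DESeq2 1.42.0, limma-voom (limma 3.58.1), other scalings and filters, robust empirical Bayes, a term for stromal markers, a replicate block and leaving out tumours. Promoters are RefSeq's on GRCm38.p6, and transcript lengths are GENCODE's, matched by symbol. Since counts were made on mm9, no gene coordinates are given with them.

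The 34 genes, the other lists and RPC 3, 5 and 6 as a separate set were chosen with earlier results of these data known. All tumours are given for the defining gene of each class, and in each class the 2 genes with the highest mean and the 1 with the smallest p are described. Genes at 25% or more, or within the range of the other tumours, in RPC 3, 5 and 6 are named too. From other lists, the genes called and those with the smallest p are named, up to 4 per list. The correlations with 1 further gene are not reported here. Bpifa1, Krt5, the count ratios shown, the 5% and 25% limits and the promoters printed were chosen after their values were seen.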

Additional observations from a re-analysis of the deposited data

Results flagged for a closer look

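Aldh1a1 in RP tumour 3 was far below the other 6 RP tumours, at 16.5 CPM or a log2 value of 4.05, where the nearest was 6.80. The gap was 0.707 of the range of the 7 values, over the critical value of 0.568. Among 24 groups of values tested this was the only one marked in this way, and chance marks about 1 in 20.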

How the results depend on the processing

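Genes called between genotypes numbered 327, against 1424 with DESeq2, 503 with limma-voom, 6 with a term for stromal markers, 11 without RPC 3, 5 and 6, 74 with the replicate block, and 51 (without RP 6) to 898 (without RP 3) with 1 tumour left out. Of the 34 genes 0 were called, against 2 with DESeq2 (Muc5b, adjusted p = 0.0015, and Tmem212, adjusted p = 0.0223) and 0 to 2 with 1 tumour left out. Of the other lung epithelial genes 3 were called, against 14 with DESeq2, 6 with limma-voom, 0 with the stromal term, 0 without RPC 3, 5 and 6, 0 with the replicate block and 0 to 8 with 1 tumour left out. Other scalings, filters and robust empirical Bayes kept these counts within 1.5 times.

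Signs turned for uncalled genes. With limma-voom, log2 fold changes were -2.41 for Sftpc, -2.12 for Ager and -3.27 for Sec14l3, and 30 of 33 genes were negative (median -2.22). With the replicate block they were -2.36, -2.31 and -3.23, and 13 of 33 genes were lower at an unadjusted p under 0.05 (12.8% of all genes). With the stromal term Scgb1a1 was 0.83, Sftpb 0.50 and Abca3 0.14. Without RPC 3, 5 and 6 Sftpb was 0.44, Abca3 0.10 and the mean log2 difference of Ager 0.33. With 1 tumour left out Sftpc ranged from -1.12 to 0.43, Ager from -0.87 to 0.43 and Sec14l3 from -1.01 to 0.53. The cause was not tested. Same-numbered tumours deviated together (correlation over 0.1) in 3 of 7 pairs, and the own number was the best match for 2 of 7 RP and 3 of 7 RPC tumours. With 7 pairs this can neither establish nor exclude that the numbers pair the tumours. Values at or under 3 counts cannot be ranked.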
